A study of Mus musculus with 12 samples.

Results

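The comparison of spleens from ampicillin-treated mice with spleens from untreated mice rested on 6 of the 12 samples of the series, 3 in each group, taken by their titles. All mice had a C57BL6 background and a knockout at exon 16 that the labels name Hemophilia A, in which blood clots poorly for want of factor VIII, so the control mice carried the same knockout. The treated group received ampicillin, a broad-spectrum antibiotic that acts on gut bacteria, by gavage when 3 weeks old, and the control group was untreated. All spleens were taken at 6 weeks. The labels number the treated mice 1 to 3 and the control mice 7 to 9, so each spleen came from its own animal. The labels name no group with gavage of vehicle, so gavage and ampicillin cannot be told apart, and sex, cage and litter are not given in the labels. Transcripts were measured on the Mouse Immunology panel of NanoString nCounter, a method that counts barcoded probes bound to RNA and needs no amplification. Of its 561 genes, the 445 with a mean of at least 20 counts over the 12 samples, after scaling by 14 housekeeping genes, were described. Just above that minimum were C7 (20.3) and Il12rb1 (20.8), and just below it Ccl24 (19.3) and Klra4 (19.1).

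The spleen filters blood and holds white pulp, in which T and B lymphocytes gather around small arteries, and red pulp, whose macrophages remove old red cells and recycle their iron. In young mice the red pulp also makes blood cells, chiefly red cells and granulocytes, and this extramedullary output varies with demand. Gut bacteria are known to shape the maturation of lymphocytes and myeloid cells in tissues beyond the gut. A whole spleen mixes all these cells, so for every gene below fewer cells of a type and less RNA per cell cannot be told apart.

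The samples held the markers of spleen. In the control spleens the B cell gene Ms4a1 stood at 8704, 7555 and 8612 scaled counts, the T cell receptor gene Cd3e at 826, 762 and 935, and the macrophage growth factor receptor gene Csf1r at 2201, 2443 and 2310. Total counts ran from 402541 to 738489 over the 6 spleens. The housekeeping geometric mean ranged 1.60-fold among them. The 3 treated spleens differed among themselves more than the controls did. Their log2 standard deviation (SD) per gene had a median of 0.19, against 0.11 in the control spleens, and 328 of 445 genes had the wider SD in the treated group. A difference of more than 1 on the log2 scale between the highest and the lowest treated spleen was seen in 32 genes, against 14 among the controls.

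With the main test, edgeR's quasi-likelihood test on all 12 samples with Benjamini-Hochberg adjustment, 75 of 445 genes (16.9%) were called at an adjusted p under 0.05, and 158 (35.5%) had an unadjusted p under 0.05. Higher after ampicillin were 10 genes (2.25%), and lower were 65 (14.6%). The words rose and fell below refer to these calls, which take their spread from all 12 samples, the lymph nodes included. The median log2 SD per gene was 0.14 in the treated and 0.11 in the control nodes. On the 6 spleens alone edgeR called 0 genes at the same threshold, with 122 (27.4%) at an unadjusted p under 0.05 and 62 at an adjusted p under 0.1, 56 of them among the 75; the smallest adjusted p was 0.094. The 4 largest rises were in genes of red cell precursors, and the falls were spread over T cell, B cell, antigen presentation and interferon-regulated genes. The whole panel also shifted: the median log2 change over the 445 genes was -0.17 with housekeeping scaling and 0.00063 with trimmed mean (TMM) scaling, which assumes that most genes do not change. TMM scaling called 22 genes (4.94%), 11 higher (2.47%) and 11 lower (2.47%), of which 18 were also called with housekeeping scaling in the same direction.

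The bar chart of calls gives the count under each choice of scaling, test and samples. It was 159 (35.7%) when ampicillin spleen 1 was left out, 4 (0.899%) for ampicillin spleen 2 and 17 (3.82%) for ampicillin spleen 3. Leaving out control spleens 1, 2 and 3 gave 0 (0.0%; 111 or 24.9% at an unadjusted p under 0.05), 12 (2.7%) and 32 (7.19%). With TMM scaling and 1 spleen left out, a setting chosen after seeing the data, the shares were 11.9%, 1.12% and 0.674% for the treated and 0.0%, 2.02% and 0.0% for the control spleens. In those with 0 calls, without control spleens 1 and 3, 77 (17.3%) and 101 (22.7%) genes had an unadjusted p under 0.05. With TMM scaling the 6 spleens alone also gave 0, and 103 (23.1%) at an unadjusted p under 0.05. Median of ratios scaling called 4.27% and total count scaling 6.74%. No low count filter gave 11.0% and a minimum of 50 gave 19.3%. The limma test called 9.89%, with sample weights 41.3%, and robust empirical Bayes 14.6%. The share from DESeq2 was 21.3% on housekeeping size factors and 12.1% on its default ones. None of the 10 rises and none of the 65 falls passed in all 6 fits without 1 spleen and with housekeeping scaling. Of the falls 35 passed in at most 1 fit, 17 in 2 and 13 in 3 or more.

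**Figure D1:**
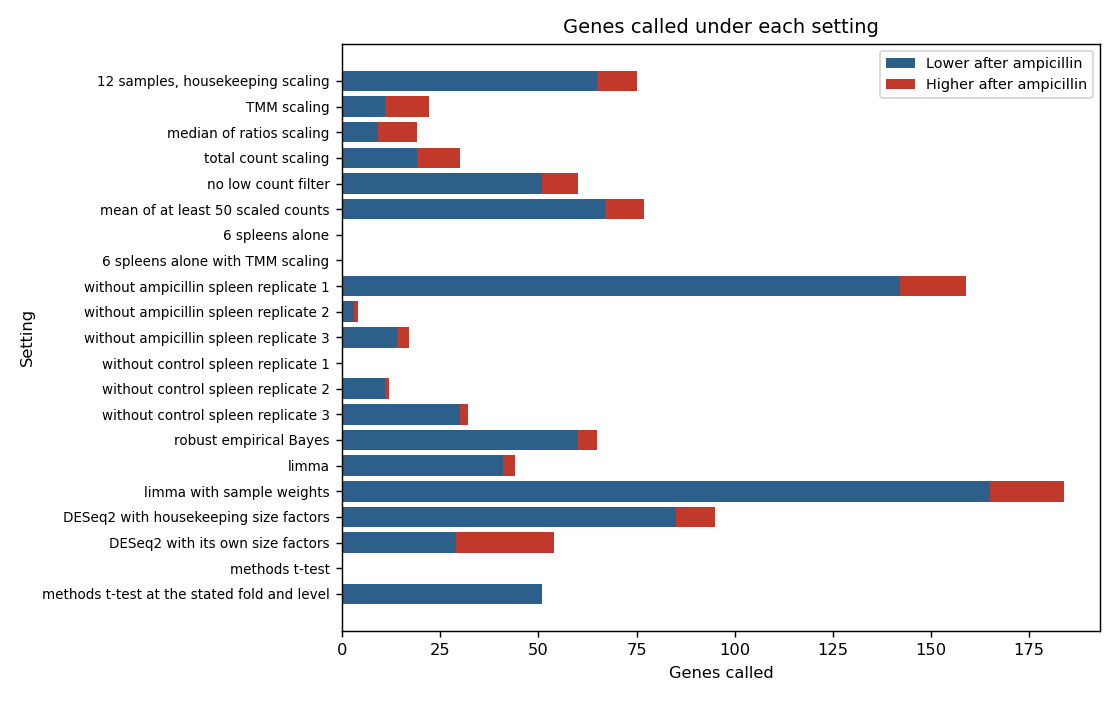
Number of genes called (x axis) under each setting (y axis), with falls after ampicillin in blue and rises in red, out of 445 genes except where the low count minimum was changed. The 12-sample fit with housekeeping scaling called 75 genes, TMM scaling 22, the 6 spleens alone 0, and the fits without 1 spleen 0 to 159.

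The genes that rose most belong to the making of red cells. Red cell precursors take up iron through the transferrin receptor, build heme in the mitochondria and carry their own adhesion molecules, and their program is run by factors such as Tal1 and its partners of the GATA family. Of 8 panel genes on the erythroid list 7 were above the minimum, and 5 of these 7 rose while none fell. The median log2 change of the 7 was 2.00, against -0.17 over all tested genes.

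Because these genes moved together, the sequences just upstream of their start sites are shown, as the 250 bases before the start site (RefSeq, GRCm38.p6). Of the 5 genes that rose, 4 had an entry in the table, and for Tal1 and Tfrc the more upstream of the listed start sites was taken. Capitals mark the letters GATAA, the core that GATA factors bind, or their reverse complement TTATC, both strands searched.
Tfrc, chr16:32608646-32608895, + strand: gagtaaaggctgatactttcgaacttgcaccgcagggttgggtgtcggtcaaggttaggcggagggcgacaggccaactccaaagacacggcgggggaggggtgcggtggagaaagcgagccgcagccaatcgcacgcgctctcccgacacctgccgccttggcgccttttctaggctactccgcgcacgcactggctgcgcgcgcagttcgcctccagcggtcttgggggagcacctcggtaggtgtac
Tal1, chr4:115056176-115056425, + strand: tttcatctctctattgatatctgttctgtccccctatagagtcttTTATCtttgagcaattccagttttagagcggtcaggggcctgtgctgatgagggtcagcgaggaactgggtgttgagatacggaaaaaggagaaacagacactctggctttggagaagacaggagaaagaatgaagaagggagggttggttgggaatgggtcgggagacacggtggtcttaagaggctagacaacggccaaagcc
Abcb10, chr8:123983123-123983372, - strand: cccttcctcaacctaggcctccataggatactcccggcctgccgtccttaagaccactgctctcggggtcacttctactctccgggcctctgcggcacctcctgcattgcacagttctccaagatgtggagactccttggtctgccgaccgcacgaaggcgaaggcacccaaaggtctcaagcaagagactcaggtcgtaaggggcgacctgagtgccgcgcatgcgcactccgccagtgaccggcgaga
Icam4, chr9:21029182-21029431, + strand: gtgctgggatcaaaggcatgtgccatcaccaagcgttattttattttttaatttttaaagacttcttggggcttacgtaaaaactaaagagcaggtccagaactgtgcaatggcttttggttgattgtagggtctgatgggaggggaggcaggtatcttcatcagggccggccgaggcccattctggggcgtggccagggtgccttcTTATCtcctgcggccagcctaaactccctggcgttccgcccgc
The window of Icam4 held 1 match and that of Tal1 held 1, both on the reverse strand, while those of Tfrc and Abcb10 held 0. The window of the other listed Tal1 start site held 0. A match was present in 22.6% of all 32851 such windows, and in 16.8% of the 417 windows of tested panel genes. A match describes letters in the window only.

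Tfrc, the transferrin receptor that carries iron into the cell, had scaled counts of 609, 5132 and 3941 in the treated spleens, in the order 1 to 3, against 774, 1102 and 544 in the controls, an order kept for all genes below. Its log2 change was 2.00 ± 0.51 (SE, n = 3 each; adjusted p = 0.026, edgeR). Ampicillin spleens 2 and 3 were far above every control, and ampicillin spleen 1 lay inside the control range, so the groups overlapped.
Tal1, which directs blood cell precursors as a transcription factor, stood at 104, 1323 and 937 in the treated and 145, 275 and 115 in the control spleens (log2 change 2.14 ± 0.61, adjusted p = 0.038, edgeR). Abcb10, a transporter of the inner mitochondrial membrane used in heme synthesis, stood at 87.3, 754 and 604 against 103, 149 and 72.1 (log2 change 2.14 ± 0.53, adjusted p = 0.025, edgeR). Icam4, an adhesion molecule of red cells, stood at 10.3, 281 and 189 against 28.6, 42.7 and 15.6 (log2 change 2.43 ± 0.72, adjusted p = 0.04, edgeR). In both Tal1 and Icam4 ampicillin spleen 1 was below all 3 controls, while the other two treated spleens were above them all. Cd24a, a surface protein of red cell precursors and of immature B cells, stood at 1016, 5479 and 4196 against 1546, 1695 and 1219 (log2 change 1.26, adjusted p = 0.046, edgeR), with the same order of spleens. The control spleens also kept one order in all 5 genes, with control spleen 2 highest and control spleen 3 lowest.

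The remaining erythroid list members did not follow. Hfe, which senses iron together with the transferrin receptor, stood at 658, 613 and 542 in the treated and 636, 632 and 537 in the control spleens. Kit, the receptor for stem cell factor on early progenitors and mast cells, stood at 47.9, 38.2 and 43.2 against 46.1, 62.7 and 43.8. Neither was called, and the groups overlapped in both. Hamp, the iron hormone made mainly by liver, was below the minimum. The 5 erythroid calls became 0 in the fits without ampicillin spleen 2, ampicillin spleen 3 or any control spleen, and stayed at 5 without ampicillin spleen 1. With TMM scaling 2 of the 7 were called, Tfrc and Abcb10, while Tal1, Icam4 and Cd24a had adjusted p values of 0.055, 0.066 and 0.066.

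Prim1, the small subunit of the DNA primase that starts DNA replication, stood at 140.4, 332 and 348 in the treated and 168, 205 and 141 in the control spleens. It was not called (log2 change 0.67 ± 0.26, adjusted p = 0.095, edgeR). Ampicillin spleens 2 and 3 were above all controls and ampicillin spleen 1 was below them all.

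**Figure D2:**
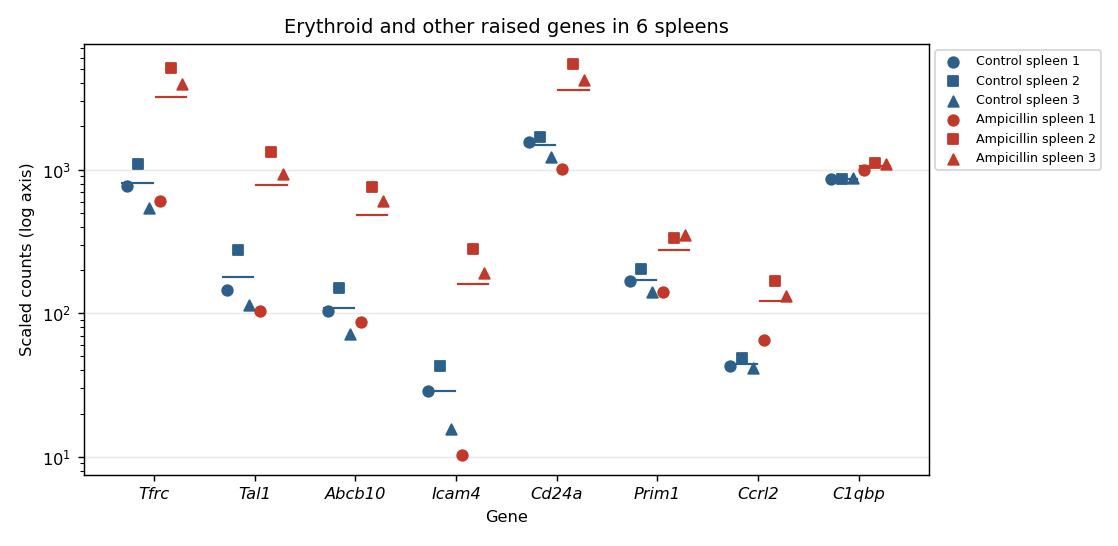
Scaled counts (log axis) of 8 genes in each of 6 spleens, controls in blue and ampicillin in red, with the symbol giving the replicate number and a short line the group mean. In Tfrc, Tal1, Abcb10, Icam4, Cd24a and Prim1 ampicillin spleens 2 and 3 sit above the controls and ampicillin spleen 1 does not, whereas in Ccrl2 and C1qbp all 3 treated spleens sit above the controls.

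The other 5 rises differed from the erythroid pattern in that all 3 treated spleens lay above all controls. Such separation upward was seen in 13 of 445 genes (2.92%) with housekeeping scaling and in 56 (12.6%) with TMM scaling. Ccrl2, a receptor-like protein that binds the attractant chemerin, stood at 65.1, 168 and 131 in the treated and 42.9, 49.1 and 41.9 in the control spleens, 2.69-fold higher (log2 change 1.43 ± 0.28, adjusted p = 0.017, edgeR). C1qbp, found mostly in mitochondria and able to bind C1q, stood at 1002, 1104 and 1097 against 859, 865 and 877. Its change was small and even (1.23-fold, adjusted p = 0.02, edgeR).
In the other 3 genes ampicillin spleen 1 took part fully. Cebpb, a transcription factor of granulocytes and macrophages, stood at 403, 292 and 264 against 176, 237 and 219 (adjusted p = 0.028, edgeR), with ampicillin spleen 1 the highest. Cd34, found on progenitors and endothelium, stood at 334, 243 and 275 against 187, 218 and 169.5 (adjusted p = 0.04, edgeR), again with ampicillin spleen 1 the highest. Fkbp5, a co-chaperone that glucocorticoids induce, stood at 286, 195 and 404 against 166, 192 and 186 (adjusted p = 0.038, edgeR). All 5 of these rises passed with TMM scaling too.

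Fkbp5 and Cebpb both belong to the list of genes that respond to glucocorticoids, of which 5 of 5 panel members were tested, 2 rose and none fell. Over all 445 tested genes 2.25% rose and 14.6% fell. The median log2 change of the list was 0.45, against -0.17 over all tested genes. The other members did not pass. Cxcr4, the receptor for the chemokine Cxcl12, stood at 3502, 2643 and 2004 in the treated and 1589, 2055 and 2336 in the control spleens, Il1r2, a decoy receptor for interleukin 1, at 32.5, 38.2 and 31.6 against 26.2, 25.5 and 26.3, and the scavenger receptor gene Cd163 at 303, 315 and 256 against 355, 370.0 and 325. Relative to the control mean, the list median was 0.66, 0.42 and 0.27 for treated spleens 1 to 3 and -0.12 to 0.08 over the controls. Over all 445 genes the medians were -0.05, -0.25 and -0.24, so ampicillin spleen 1 was the highest treated spleen there too. By single gene ampicillin spleen 1 was the highest treated spleen in Cebpb and Cxcr4, but not in Fkbp5, Il1r2 or Cd163.

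T cell genes made up the largest block of falls among the lists. T cells detect antigen through a receptor complexed with the CD3 chains and Cd247, which passes the signal to the kinases Lck and Zap70. Of 20 tested genes of the general T cell list 10 fell, none rose, and all 20 had a log2 change below 0, at a median of -0.43. Over all tested genes 346 of 445 were below 0, 14.6% fell and the median was -0.17, and the counts of the lists below are to be read against these. With TMM scaling 5 fell and the median was -0.26. Cd6 and Cd5, scavenger-type receptors that tune the signal of the T cell receptor, were lower in each treated spleen than in any control. Cd6 stood at 194, 134 and 122 in the treated and 254, 235 and 239 in the control spleens (log2 change -0.69 ± 0.14, adjusted p = 0.017, edgeR). Cd5 stood at 355, 281 and 230.0 against 439.8, 438 and 451 (log2 change -0.62 ± 0.12, adjusted p = 0.017, edgeR). In both, as in all 20 genes of the list, ampicillin spleen 1 was the highest of the treated spleens.

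Within the receptor complex, Cd3d fell from 1520, 1380 and 1723 in control spleens 1, 2 and 3 to 1398, 851 and 786 in ampicillin spleens 1, 2 and 3. It was the 1 gene among the 65 falls in which the groups overlapped, through ampicillin spleen 1. Cd247 fell by 0.60 on the log2 scale and Lck by 0.45. Cd3e, another chain, stood at 924, 587 and 519 in the treated spleens and 826, 762 and 935 in the controls, and Zap70 at 187, 86.6 and 116 against 172, 175 and 195. Neither was called, and ampicillin spleen 1 lay inside the control range in both. Sh2d1a, the adaptor of the SLAM receptors, fell by 0.57, Cd2, an adhesion receptor, by 0.43, and the coreceptor gene Cd4 by 0.42 (log2). The coreceptor genes of killer T cells were not called, Cd8a at 401, 311 and 238 against 408, 378 and 433 and Cd8b1 at 286, 145 and 135 against 214, 234 and 250.4. The transcription factor genes of naive T cells Tcf7 (log2 change -0.42) and Lef1 (-0.31) were not called either.

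The T cell and the erythroid values stood farthest from the controls in the same spleens, ampicillin spleens 2 and 3. Relative to the control mean, the T cell list had medians of -0.10, -0.61 and -0.76 for treated spleens 1 to 3 and -0.04 to 0.09 over the controls. The summed level of the 7 erythroid genes was 2546 to 3957 scaled counts in the controls, 2532 in ampicillin spleen 1, and 13620 and 10452 in ampicillin spleens 2 and 3. The part of that rise in the T cell values was not tested. Leaving out treated spleens 1, 2 and 3 in turn turned the 10 T cell falls into 18, 0 and 3. Leaving out control spleens 1, 2 and 3 turned them into 0, 4 and 6.

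Genes of T cell costimulation, the second signal that a T cell needs beside its receptor, fell in 7 of 13 tested members, with 3 falling under TMM scaling. Tnfrsf4, the OX40 receptor of activated T cells, stood at 50.5, 44.6 and 45.7 in the treated and 85.9, 66.4 and 75 in the control spleens (log2 change -0.69, adjusted p = 0.017, edgeR). Icos, a costimulatory receptor of helper T cells, stood at 178, 152 and 135 against 238, 228 and 222 (log2 change -0.57, adjusted p = 0.017, edgeR). In both genes every treated spleen was below every control. Cd27 fell by 0.56, Cxcr6, a chemokine receptor of effector T cells, by 0.64, Slamf1 by 0.61, Dpp4 by 0.33 and Cd274, the ligand PD-L1 that restrains T cells, by 0.46 (log2). The members with the highest values were Cd69, an early activation marker, at 0.44 ± 0.19, and Cd44 at 0.04 ± 0.10, neither of them called. Partners outside the list also fell, among them Icosl, the ligand of Icos, by 0.42, Cd40, the receptor through which T cells help B cells, by 0.51, and Tnfsf14 by 0.56. Of 8 tested checkpoint genes 1 fell, Cd274. Ctla4 stood at 73.6, 56 and 44 against 78.7, 74.5 and 79.9, and Pdcd1 at 44.5, 33.1 and 48.2 against 55.7, 47.3 and 66.2.

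Regulatory T cells, which restrain other T cells under the factor Foxp3, were represented by 10 tested genes, of which 3 fell and none rose. Foxp3 stood at 68.5, 56 and 39 in the treated and 93.8, 77.3 and 80.9 in the control spleens (log2 change -0.63 ± 0.18, adjusted p = 0.038, edgeR). Folr4, a folate receptor family member of regulatory T cells, stood at 138, 103 and 106 against 157, 179 and 195 (adjusted p = 0.02, edgeR). Tnfrsf4 was the third. No treated spleen reached the lowest control in these genes. The related transcription factor genes Ikzf2 (-0.45 ± 0.16) and Ikzf4 (-0.50 ± 0.18) were not called. Only Tnfrsf4 of these passed with TMM scaling, and the 3 falls became 5 without ampicillin spleen 1, 0 without ampicillin spleen 2, ampicillin spleen 3 or control spleen 1, and 1 without control spleen 2 or 3. Gata3, the factor of type 2 helper T cells, fell by 0.51 from 111, 113 and 115 to 88.2, 80.2 and 69.8, and Cxcr3, a receptor of type 1 effector cells, fell by 0.57.

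**Figure D3:**
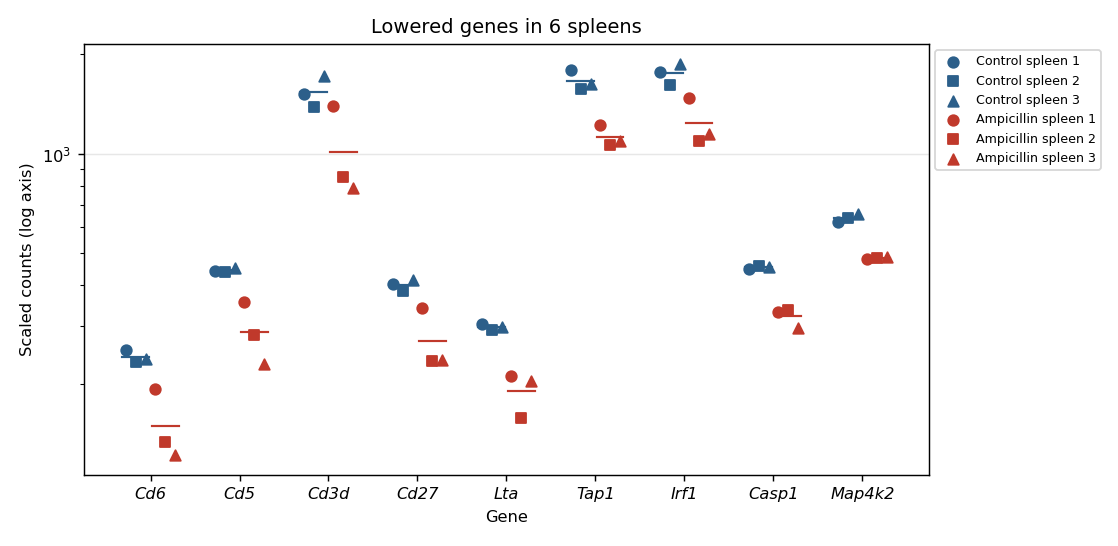
Scaled counts (log axis) of 9 genes called lower, in each of 6 spleens, controls in blue and ampicillin in red, with the symbol giving the replicate number and a short line the group mean. In Cd6, Cd5 and Cd27 ampicillin spleen 1 lies between the other treated spleens and the controls, in Cd3d it lies inside the control range, whereas in Casp1 and Map4k2 the 3 treated spleens lie close together below the controls.

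B cell genes lay below the controls by a smaller amount. Of 13 tested members 4 fell, none rose, and all 13 had a log2 change below 0 (median -0.28), as had 346 of all 445 genes (median -0.17), while with TMM scaling none passed (median -0.11). Cd79a, a signalling chain of the B cell receptor, stood at 139.5, 111 and 132 in the treated spleens, against 185 ± 13.4 (SD, n = 3) in the controls, with every control above every treated spleen (log2 change -0.53 ± 0.13, adjusted p = 0.025, edgeR). Cd22, a lectin that dampens the receptor, stood at 958, 754 and 977 against 1289, 1395 and 1130 (log2 change -0.50, adjusted p = 0.024, edgeR). Ampicillin spleens 1 and 3 were close together in Cd22. Pou2f2, a transcription factor of B cells, fell by 0.40 (log2). Cd79b, the partner of Cd79a, stood at 8264, 7391 and 6824 against 8880, 8426 and 9197, and Cr2, the complement receptor of marginal zone and follicular dendritic cells, at 1272, 960.2 and 1006 against 1368, 1369 and 1273. Neither was called. The marker list of B cells summed to 29121 to 33701 scaled counts in the treated and 36130 to 37111 in the control spleens. Cd1d1, which presents lipids and is high on marginal zone B cells, fell by 0.40, and Tnfrsf13b, the TACI receptor for the survival factors BAFF and APRIL, fell by 0.32. The remaining 7 tested genes of the germinal centre and plasma cell list were not called, with Bcl6 at -0.19, Prdm1 at -0.08 and Xbp1 at -0.12.

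Among genes of antigen presentation the calls of the main fit were mostly on the class I list. MHC class I molecules show peptides, cut by the proteasome and pumped by Tap1 and its partner, to killer T cells. Of 7 tested genes of this list 4 fell and none rose, at a median of -0.43, and 1 fell with TMM scaling. Tap1 stood at 1220, 1060 and 1091 in the treated and 1789, 1567 and 1623 in the control spleens (log2 change -0.56 ± 0.11, adjusted p = 0.017, edgeR), and with TMM scaling its adjusted p was 0.031. The heavy chain gene H2-K1, whose probe may also bind related class I genes, stood at 3379, 2513 and 2396 against 4003, 3531 and 3873. The immunoproteasome subunit gene Psmb9 fell by 0.44 and Mr1, which presents vitamin metabolites of bacteria, by 0.43. The light chain gene B2m, at 33870, 30591 and 26828 against 34707, 32249 and 35048, was not called. Of the 9 class II genes 1 fell, H2-DMa, which loads peptides, from 2274, 2055 and 2014 to 1815, 1500 and 1666. This share was no higher than the 14.6% over all genes. All 9 had values below 0, as had 346 of all 445 genes, and none passed with TMM scaling. The treated spleens all lay below the controls in 6 of the 9 class II and 6 of the 7 class I genes, beside 31.7% over all genes. Without ampicillin spleen 1, 7 class II and 5 class I genes were called lower, beside 142 of all 445 genes. H2-Aa stood at 36994, 29399 and 29379 against 40709, 38641 and 36877, and Ciita, the master regulator of class II genes, at 1451, 1211 and 1412 against 1755, 1780 and 1534.

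Tap1, Psmb9 and H2-K1 are genes that interferons induce. On the interferon response list 4 of 13 fell, among them Irf1, Stat2 and Psmb9, none rose, and 1 fell with TMM scaling. Irf1, a transcription factor that interferon gamma induces, stood at 1474, 1089 and 1151 in the treated and 1772, 1611 and 1874 in the control spleens (log2 change -0.50 ± 0.11, adjusted p = 0.017, edgeR). The signal carrier Stat2 fell by 0.48 (log2), with 258, 209 and 220.0 scaled counts against 336, 310.0 and 316. Mx1, Irf7 and Ifitm1, known mainly from the type I interferon response, were not called. Mx1 stood at 163, 172 and 175 against 155, 190.0 and 126, Irf7 at 149.8, 116 and 149 against 158, 102 and 156 and Ifitm1 at 779.8, 571 and 554 against 525, 628 and 611, and the groups overlapped in all of them. Cxcl9 and Cxcl10, chemokines that interferon gamma induces, had log2 changes of -0.54 ± 0.25 and -0.40 ± 0.25 and were not called. Irf5 and Irf8, factors of myeloid and B cells, fell by 0.32 and 0.28.

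Genes of natural killer and cytotoxic cells had log2 changes below 0 in all 16 tested members, at a median of -0.35, beside 346 of 445 genes and -0.17 over all. Of these 16 genes 3 fell, a share near the 14.6% over all genes, and none passed with TMM scaling. Klrd1, the CD94 chain of natural killer receptors, fell by 0.44 from 572, 508 and 443 to 436, 322 and 363. Xcl1, a chemokine of natural killer and activated killer T cells, stood at 59.9, 64.9 and 51.5 in the treated and 96.2, 96.4 and 71.1 in the control spleens. Its receptor gene Xcr1, carried by the dendritic cells that prime killer T cells, stood at 82.2, 108 and 67.3 against 177, 126 and 126 and had the most negative log2 change of the 65 falls (-0.75 ± 0.20, adjusted p = 0.028, edgeR). Neither of this ligand and receptor pair passed with TMM scaling (adjusted p = 0.12 and 0.086). The chemokine gene Ccl5 fell by 0.36. The granule genes Gzma (-0.44 ± 0.28) and Prf1 (-0.34 ± 0.22) were not called, and the Klra genes, whose probes may bind several members, varied widely among the controls, with Klra8 at 94.6, 86.4 and 44.8. Cd226, an activating receptor of natural killer and T cells, fell by 0.48, Slamf7 by 0.31 and Cd48 by 0.32.

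Dendritic cell genes fell in 3 of 13 tested members, Xcr1, Itgax and Irf8, with none under TMM scaling. Itgax, the CD11c integrin chain, stood at 275, 210.1 and 277 against 362, 373 and 302. Batf3, the factor on which the Xcr1-bearing dendritic cells depend, stood at 67.6, 56 and 60.6 against 70.0, 71.8 and 78.9 and was not called. Markers of dendritic cell maturation were near the control level, Cd86 at -0.06 and Cd83 at 0.01 (log2, not called). Few macrophage genes were called. Of 19 monocyte and macrophage genes 1 fell, the adaptor gene Tyrobp (by 0.27), and none rose, beside 14.6% and 2.25% over all genes. Csf1r stood at 2597, 2348 and 1987 in the treated and 2201, 2443 and 2310 in the control spleens, C1qa at 2064, 2034 and 1579 against 1858, 2116 and 1902, and the marginal zone scavenger receptor gene Marco at 1586, 1330 and 1133 against 1188, 1448 and 1787, with overlap between groups in all of them. Fcgr1, the high-affinity receptor for IgG, had a value of -0.50 ± 0.18 and was not called. Cd14 and Cd36 lay above all controls in the 3 treated spleens, Cd14 at 203, 162 and 143 against 130.4, 118 and 129.6 and Cd36 at 1937, 2506 and 2070 against 1776, 1708 and 1748. Neither passed with housekeeping scaling (adjusted p = 0.095 and 0.087, edgeR), while Cd14, the coreceptor for bacterial lipopolysaccharide, passed with TMM scaling (adjusted p = 0.044).

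Several granulocyte and platelet genes varied strongly between single spleens. S100a8 and S100a9 encode calprotectin, the chief cytosolic protein of neutrophils. S100a8 had 2320, 6064 and 9941 scaled counts in the treated and 7111, 8581 and 4449 in the control spleens, and S100a9 had 2421, 5726 and 9288 against 6188, 7393 and 3880. Camp, an antimicrobial peptide of neutrophil precursors, stood at 222, 793 and 1443 against 1229, 1403 and 712, and Ctsg, a protease of early granules, at 26.5, 85.3 and 105 against 62.8, 86.4 and 36. In all 4 genes ampicillin spleen 1 was the lowest of the 6 spleens and the groups overlapped, and none was called (log2 changes -0.14, -0.002, -0.44 and 0.21). Cxcr2 and Csf3r of the same list had another order, with ampicillin spleen 1 the highest of the 6 spleens. Cxcr2 stood at 248, 158 and 133 against 134, 158 and 126 and Csf3r at 234, 129 and 146 against 155, 227 and 109. Il1r2 and Ncf4 of this list were not highest in ampicillin spleen 1. Of 10 tested neutrophil genes 1 rose, Cebpb, and none fell, beside 2.25% and 14.6% over all genes. The groups were separated upward in Cebpb and Il1r2 and downward in Ncf4, a subunit of the phagocyte oxidase (1185, 1056 and 1192 against 1300, 1426 and 1228, not called). Over all 445 genes 2.92% were separated upward and 31.7% downward.

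The low value of ampicillin spleen 1 was also seen in 3 of the 5 tested platelet genes. Ppbp, a chemokine of platelet granules, stood at 1911, 2719 and 3613 in the treated and 3613, 4871 and 2796 in the control spleens, Itga2b, the integrin chain of the fibrinogen receptor, at 276, 355 and 489.9 against 514, 713 and 436, and Gp1bb, part of the receptor for von Willebrand factor, at 114, 146 and 193 against 211, 271 and 154. These 3 genes had log2 changes of -0.45, -0.57 and -0.49, and none of the 5 platelet genes was called. The other two did not share the pattern, with Cd36, given above, higher than all controls in every treated spleen and Cd9, a membrane protein of platelets and other cells, lower in every treated spleen (1115, 1081 and 1114 against 1217, 1263 and 1281). The control spleens kept the order seen in the erythroid genes, control spleen 2 highest and control spleen 3 lowest, in all 7 of these granule and platelet genes.

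**Figure D4:**
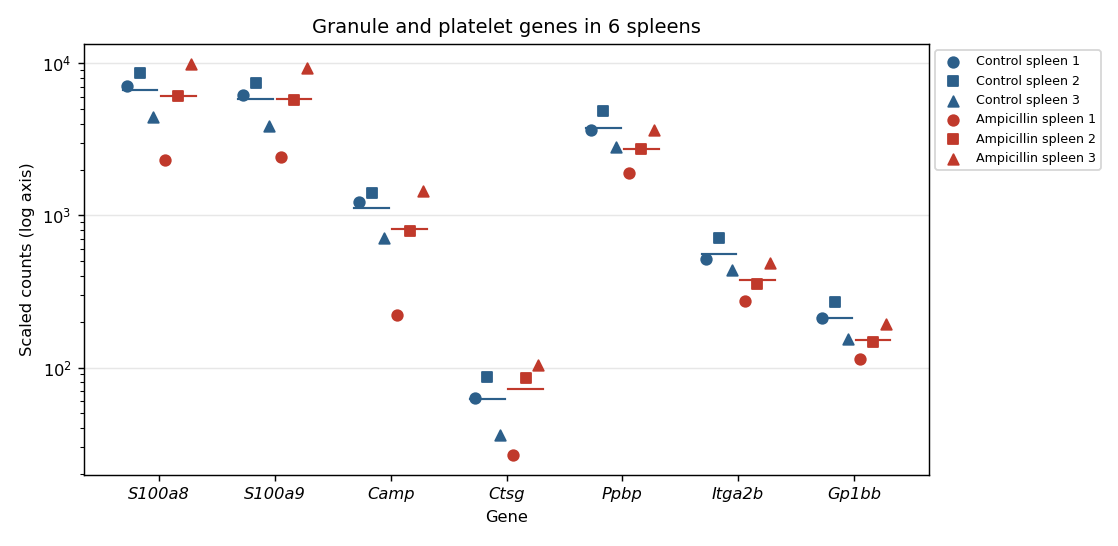
Scaled counts (log axis) of 4 granulocyte and 3 platelet genes in each of 6 spleens, controls in blue and ampicillin in red, with the symbol giving the replicate number and a short line the group mean. Ampicillin spleen 1 is the lowest of the 6 in all 7 genes, and the groups overlap in each.

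The genes that organise lymphoid tissue gave 2 falls among 12, a share near the 14.6% over all genes. Lta, a lymphotoxin that lymphocytes make and that follicles need, stood at 211, 158 and 205 in the treated and 305, 293 and 298 in the control spleens (log2 change -0.63 ± 0.11, adjusted p = 0.014, edgeR). It passed with TMM scaling (adjusted p = 0.031) and in 5 of the 6 fits without 1 spleen, the exception being control spleen 1. The neighbouring cytokine gene Tnf stood at 59.1, 62.4 and 88.8 against 134, 102 and 100.3 (log2 change -0.67, adjusted p = 0.046, edgeR), and with TMM scaling its adjusted p was 0.17. Ltb, which pairs with Lta on the cell surface, stood at 4440, 3640 and 3098 against 4433, 4200 and 4770 and was not called. The follicle chemokine gene Cxcl13 (4408, 3618 and 3948 against 3229, 3467 and 4025) and the T zone chemokine gene Ccl19 (1905, 1521 and 1432 against 1330, 1488 and 1427), both products of stroma, were not called and lay at 0.16 and 0.19 on the log2 scale. Of 12 endothelial and stromal genes Cd34 rose and Pdgfb, a growth factor of endothelium and platelets, fell by 0.45. Pecam1 (-0.19), Vcam1 (0.15) and Cxcl12 (0.21) were not called.

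Among signalling genes Casp1 and Map4k2 fell by a small amount that was even across the treated spleens. Casp1, the caspase that matures interleukin 1 beta, stood at 331, 336 and 296 in the treated and 448, 456 and 453 in the control spleens (log2 change -0.50 ± 0.08, adjusted p = 0.014, edgeR; with TMM scaling adjusted p = 0.038). Map4k2, a kinase upstream of stress-activated kinases, stood at 478, 483 and 487 against 622, 636 and 655 (log2 change -0.40 ± 0.07, adjusted p = 0.014, edgeR; with TMM scaling adjusted p = 0.066). In these genes ampicillin spleen 1 was as low as the other treated spleens, and both passed in 5 of the 6 fits without 1 spleen. Map4k1, its relative in lymphocytes, fell by 0.35, while the change of Mapk14, the kinase p38, was -0.05 (not called).
Of 20 genes of NF-kB and TRAF signalling 2 fell, beside 14.6% over all genes. They were the adaptor genes Traf1 (by 0.45) and Traf5 (by 0.40), which act below receptors such as Tnfrsf4 and Cd27. The NF-kB subunit genes Nfkb1 (-0.16), Nfkb2 (-0.05) and Relb (-0.13) were not called. Of 16 JAK, STAT and SOCS genes 2 fell, Stat2 among them. Jak3, the kinase of receptors that use the common gamma chain, had a value of -0.41 ± 0.14, and Socs1 of -0.41 ± 0.20, without a call. The cytokine receptor genes Il21r, Il17ra and Il4ra fell by 0.48, 0.27 and 0.27, the calcium-regulated factors Nfatc2 and Nfatc1 by 0.43 and 0.28, and Tnfsf10, the death ligand TRAIL, by 0.39 (log2). None of these cytokine receptor, Nfat and Tnfsf10 calls passed with TMM scaling.

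Receptors for bacterial products and their signalling genes were covered by another list. Of 18 genes of Toll-like and NOD-like receptor signalling 2 fell, Casp1 and Tlr1, and none rose. Over all 445 genes 14.6% fell and 2.25% rose. Tlr1, which senses bacterial lipoproteins together with Tlr2, stood at 740.4, 688 and 819 in the treated and 995, 1045 and 862 in the control spleens (adjusted p = 0.037, edgeR; 0.23 with TMM scaling). Tlr4, the receptor for lipopolysaccharide, stood at 338, 351 and 297 against 415, 384 and 384, and its partner gene Ly96 at 266, 246 and 249 against 244, 265 and 284. Tlr5, the flagellin receptor, was near the minimum at 32.5, 15.3 and 24.9 against 20.7, 29.1 and 31.2. None of these 3 was called, nor were the adaptor gene Myd88 (-0.08) and Nod2, the sensor of muramyl dipeptide (0.09). Sigirr, an inhibitor of interleukin 1 and Toll-like receptor signalling, fell by 0.56 from 272, 254 and 236 to 187, 129.9 and 194. In the complement list 1 of 16 genes rose, C1qbp, and 1 fell, Cd55, which protects host cells from complement (by 0.39). C3, the central component, stood at 3255, 2613 and 2589 against 2369, 2556 and 2764 and was not called.

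Chemokine receptor genes fell in 3 of 18 tested members, Xcr1, Cxcr6 and Cxcr3, and 1 rose, Ccrl2. The share that fell was near the 14.6% over all genes. The receptor genes Ccr7 (-0.15 ± 0.13) and Cxcr5 (-0.13 ± 0.10), which bring T and B cells into their zones of the white pulp, were not called. Of 17 chemokine genes 2 fell, Xcl1 and Ccl5. Among 20 adhesion genes Icam4 rose and Itgax and Itgal, the CD11a integrin chain of lymphocytes (by 0.33), fell. Of 16 genes of apoptosis and cell cycle Casp1 fell.

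The plot of list medians sets these groups side by side, with housekeeping scaling throughout. The counts that follow cover 28 lists, including the mast cell, basophil and eosinophil list, which has 2 tested genes and is not plotted. Both ampicillin spleens 2 and 3 lay below every control in the medians of 22 of 28 lists, with medians for the class I list of -0.17, -0.49 and -0.46 in ampicillin spleens 1, 2 and 3. Ampicillin spleen 1 was the treated spleen nearest to the control mean in 22 of 28 lists. The lists share members, and these counts were not repeated with TMM scaling. Relative to the housekeeping factors, the TMM factors were 0.88 in both ampicillin spleens 2 and 3. They were 1.01 in ampicillin spleen 1 and 1.01 to 1.06 in the controls, and a smaller factor gives higher scaled levels. Over all 445 genes the per-spleen medians were -0.05, -0.25 and -0.24, against -0.04 to 0.03 in the controls. Over the 65 genes that fell they were -0.29, -0.57 and -0.48, a description of genes chosen on this contrast. Ampicillin spleen 1 was below all 3 controls in 64 of these 65 genes and above them all in 5 of the 10 that rose. These genes too were chosen on this contrast. Over all 445 genes ampicillin spleen 1 was below all 3 controls in 181 and above them all in 111.

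**Figure D5:**
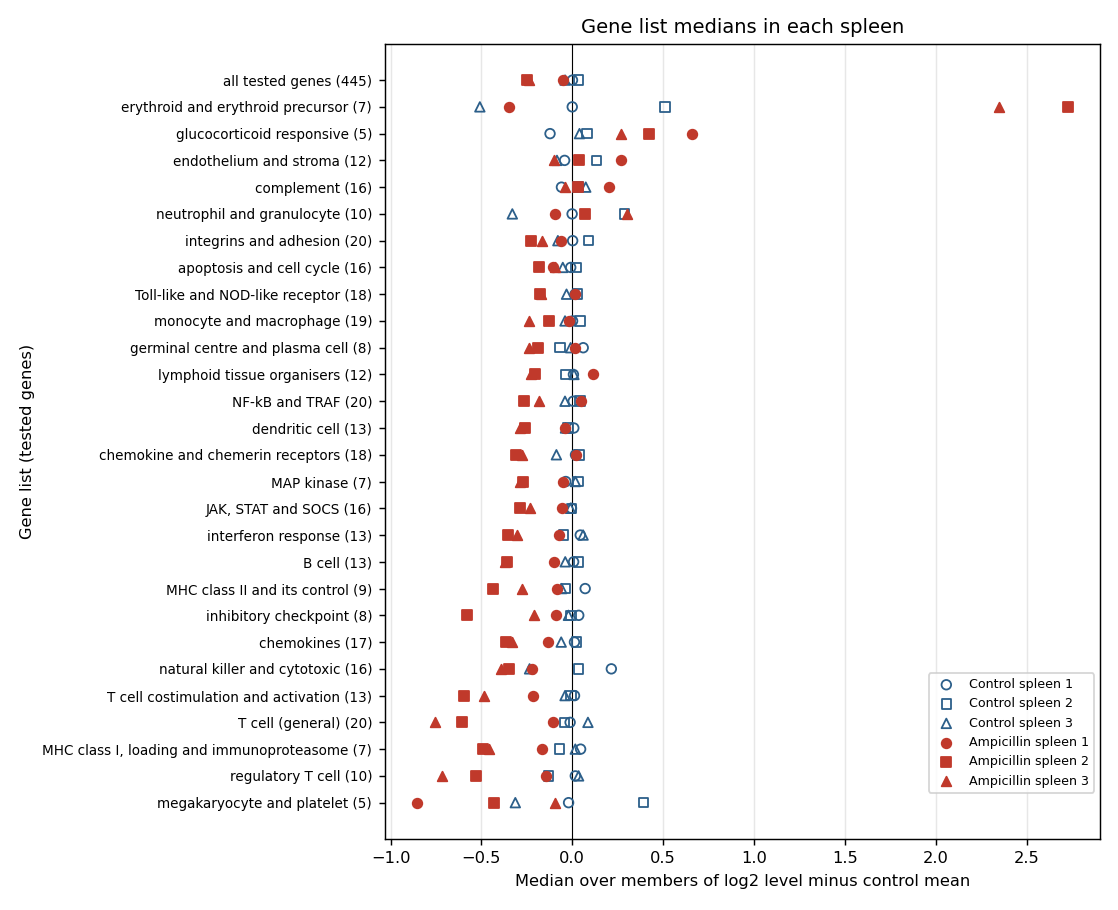
Median over the tested members of each gene list (y axis, number of genes in parentheses) of the log2 level in a spleen minus the mean of the 3 controls (x axis), with open blue symbols for control and filled red symbols for ampicillin spleens. Levels are with housekeeping scaling. The erythroid list stands at -0.35, 2.73 and 2.35 in ampicillin spleens 1, 2 and 3, and the median over all tested genes at -0.05, -0.25 and -0.24.

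How many genes separated the groups depended on the scaling. With housekeeping scaling the 3 treated spleens all lay below the 3 controls in 141 of 445 genes (31.7%), against 57 (12.8%) with TMM scaling. Counting both directions the groups were separated in 154 genes (34.6%) and 113 (25.4%). Of the 65 falls 64 were separated with housekeeping scaling and 44 with TMM scaling. The housekeeping genes themselves were not uniform. Relative to their own geometric mean, Polr2a, the large subunit of RNA polymerase II, lay lower in all 3 treated spleens (1621, 1664 and 1516 against 1784, 1699 and 1718), as did Alas1 (149.8, 147.7 and 153.6 against 176.5, 181.8 and 153.9). G6pdx, an enzyme of the pentose phosphate pathway, lay higher in all 3 (473, 461 and 479 against 441, 458 and 428). With TMM scaling the log2 differences of the housekeeping genes ran from -0.0025 in Alas1 to 0.37 in Polr1b, all but Alas1 above 0. Falls that passed with both scalings were 11, namely Tnfrsf4, Cd6, Lta, Cd5, Icos, Tap1, Cd27, Irf1, Casp1, Traf1 and Cd2. Rises that passed with both were 7, namely Ccrl2, Tfrc, Abcb10, Fkbp5, Cebpb, Cd34 and C1qbp.

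Run on the scaled counts at a fold over 1.25 and a level of 0.05, as the design text states, the methods' t-test called 51 genes (11.5%), all of them lower and 42 of them among the 65 falls, and after Benjamini-Hochberg adjustment it called 0, with 77 (17.3%) at an unadjusted p under 0.05. The erythroid genes were not among its calls. At the edge of the main threshold, Tyrobp (adjusted p = 0.049) and Pdgfb (0.048) were just inside, and Abl1 (0.051) and Il1rl1 (0.057) just outside (edgeR).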

How the data were processed

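The deposited values were whole-number counts per gene. Per the labels' protocols, tissue was kept in RNAlater and RNA isolated with an RNeasy kit, and the design text names normalization to 14 housekeeping genes in nSolver. The deposited counts did not carry it, since the housekeeping geometric mean differed up to 1.65-fold between the 12 samples, so they were treated as unnormalized. Positive control and background steps are not given in the sources used here. Another table, which holds control probes, was left out because the names of its 12 columns match none of the sample labels.

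Counts were divided by the geometric mean of the 14 housekeeping genes, which were named from knowledge of this panel. Of 547 other genes 445 had a mean of at least 20 scaled counts and 102 did not. Groups were compared by edgeR 4.0.16 (R 4.3.3; quasi-likelihood) with 4 group means of 12 samples, with 8 residual degrees of freedom (4 with the 6 spleens alone) and Benjamini-Hochberg adjustment over the 445 genes. Levels are scaled counts and changes log2 values with their standard error (SE). In simulated counts for this comparison, with 445 genes and 200 of them changed, recovery was 29.9% at a true fold of 1.25, 74.6% at 1.5 and 92.4% at 2. Of the unchanged genes 2.45% were called. The simulation gave all groups the same spread per gene and took the housekeeping factors as exact. The real treated spleens were more variable than the controls (median log2 SD 0.19 against 0.11), so recovery in them may be lower. For the same reasons the share of unchanged genes called in the real data may differ from 2.45%, and the simulation cannot give it. An exact permutation test of 3 against 3 samples cannot go below p = 0.1, so none was used. Alternatives used limma 3.58.1 and DESeq2 1.42.0.

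The members and gene lists were chosen with earlier results of these data known, and lists are described by counts and medians without a test. Named genes were all called genes, the 3 largest values in each direction of every list with at least 4 tested members, the 10 genes of widest range among the treated spleens, the 10 widest gaps in each direction, the 5 genes on each side of the threshold and the housekeeping genes. Some genes that this rule names are not reported here. Other list members given with their values, such as Hfe, Cd3e, Csf1r, Tlr4 and Myd88, were chosen after their values were seen. Of the 561 gene names 545 were current symbols of the RefSeq table (GRCm38.p6), 14 matched 1 synonym and 2 matched none. The chi-square per degree of freedom between replicate spleens was 6.99 to 66.1, above the 1 of sampling noise, so all were kept as separate replicates. The number of samples, more than the depth, limits the precision.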

Additional observations from a re-analysis of the deposited data

How the results depend on the processing

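The count of 75 calls became 22 with TMM scaling, 19 with median of ratios scaling and 30 with total count scaling. The median log2 change, -0.17 in the main result, became 0.00063, -0.016 and -0.039 under these scalings. The 6 spleens alone gave 0 calls in edgeR (122 at an unadjusted p under 0.05), and also 0 with TMM scaling (103), a setting chosen after seeing the data. The limma test on log2(scaled count + 1) gave 44 and, with sample weights, 184. The methods' t-test after adjustment gave 0. Leaving out 1 of the 12 samples gave 0 to 159 calls and medians of -0.25 to -0.14. TMM scaling without 1 spleen, chosen after seeing the data, gave 53, 5 and 3 calls without ampicillin spleens 1, 2 and 3 and 0, 9 and 0 without control spleens 1, 2 and 3. The cause of these differences was not tested. Within 1.5 times of the main count were DESeq2 with housekeeping size factors (95), DESeq2 with its own (54), robust empirical Bayes (65), the unfiltered genes (60) and a minimum of 50 (77). The split of higher against lower calls was 10 to 65 in the main result, 11 to 11 with TMM, 10 to 9 with median of ratios 11 to 19 with total count scaling and 25 to 29 with DESeq2 on its own size factors. Genes with separated groups numbered 154 in the main result and 113, 113 and 122 under the 3 other scalings.

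The sample titles share the numbers 1 to 3, but each spleen is of another mouse, and the labels state no pairing. The deviations of same-numbered treated and control spleens from their group means correlated at -0.03, 0.24 and -0.38. So few correlations, of deviations tied within each group, cannot decide whether the numbers pair the samples. The main fit used no pairing. The fit with the number as a replicate block gave 41 calls. No named gene that was called changed sign under TMM scaling, the 6 spleens alone, the block or any fit without 1 sample.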

Other observations

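A few genes outside the lists or the calls stood far from the controls in single treated spleens. Il1rl1, the receptor ST2 for interleukin 33 that mast cells, regulatory T cells and type 2 innate lymphoid cells carry, had 34.2, 94.2 and 125 scaled counts in the treated spleens, in the order 1 to 3, and 26.2, 54.5 and 29.2 in the controls. It was high in the same 2 treated spleens as the erythroid genes and was not called (adjusted p = 0.057, edgeR). Il1b, the inflammatory cytokine of myeloid cells, went the other way, at 700.2, 307 and 130.4 against 214, 213 and 269, with ampicillin spleen 1 highest (log2 change 0.71 ± 0.40, not called). Cfd, a complement protease made mainly by fat cells, stood at 9.42, 8.91 and 70.6 against 10.3, 10.9 and 10.7, above 20 scaled counts in ampicillin spleen 3 alone among the 6 spleens. Among genes with a control mean of at least 20 scaled counts, 1 lay over 2 times the control mean in ampicillin spleen 1, against 7 in ampicillin spleen 2 and 9 in ampicillin spleen 3. More than 2-fold below the control mean were 7, 5 and 4 genes in ampicillin spleens 1, 2 and 3. Ampicillin spleens 2 and 3 shared 7 of those above, Icam4, Tal1, Abcb10, Tfrc, Ccrl2, Cd24a and Il1rl1.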
